A study of Mus musculus with 20 samples.

Results

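The 39 genes described here encode the DNA damage kinases and the repair enzymes measured in gastric organoids of the mouse, small hollow epithelial structures that stomach cells form in a gel. They were taken as the rows of 39 listed gene symbols in a table of RNA-seq read counts with 24047 genes, and all 39 were present. By role they comprise 4 damage kinases, 11 homologous recombination genes, 4 Fanconi anaemia genes, 2 mismatch repair genes, 6 nucleotide excision repair genes, 7 genes of base excision and single-strand break repair, 4 end-joining genes and 1 translesion polymerase. The series set organoids that lack p53 against organoids that have it; p53 is the tumour suppressor made from Trp53.

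All organoids were on the BL/6 background and were grown in conditioned medium, with no further treatment named in the labels. The p53 knockout (KO) lines were lines 794 and 801 (dysplastic, in vivo KO, 6 libraries), line 1270 (non-dysplastic, ex vivo KO, 2 libraries) and line 650 (non-dysplastic, in vivo KO, 2 libraries). The wild-type (WT) lines were 565 and 752, dysplastic (6 libraries), and 300 and 1269, non-dysplastic (4 libraries). The number that opens each library title was taken as the line, and libraries of a line were summed for testing, which gave 4 KO and 4 WT lines. Labels do not say that the lines came from separate animals, how p53 was removed, whether a line is a clone, or what made the WT lines dysplastic; p-values therefore measure the spread between these lines, part of which may be technical. Male lines, by the counts of Xist and Ddx3y, were 650 and 300.

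Cells meet different kinds of DNA damage with different repair routes. Atm and Atr sense breaks and stalled replication and pass the signal to Chek1 and Chek2, homologous recombination and the Fanconi anaemia proteins repair breaks and crosslinks from a sister chromatid in S and G2 phase, and end joining ligates breaks at any phase. Nucleotide excision removes bulky lesions such as those made by ultraviolet light, base excision removes small base lesions, mismatch repair corrects replication errors, and translesion polymerases copy past lesions; p53 is activated by these kinases, and many recombination genes are transcribed with the cell cycle under E2F factors.

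The promoters of Ercc5 and Polk are given first, because only these 2 of the 39 genes did not overlap between KO and WT lines, although neither passed edgeR's adjusted test. They are RefSeq sequences of build GRCm38.p6, from 250 bases before to 50 bases after an annotated start, 5′ to 3′ on the strand of the gene. Capitals mark CCAAT and TTTGAA on either strand in Ercc5. In Polk, which has another annotated start, this window holds none of the motifs searched.
Ercc5 (chr1:44147494-44147793, plus strand): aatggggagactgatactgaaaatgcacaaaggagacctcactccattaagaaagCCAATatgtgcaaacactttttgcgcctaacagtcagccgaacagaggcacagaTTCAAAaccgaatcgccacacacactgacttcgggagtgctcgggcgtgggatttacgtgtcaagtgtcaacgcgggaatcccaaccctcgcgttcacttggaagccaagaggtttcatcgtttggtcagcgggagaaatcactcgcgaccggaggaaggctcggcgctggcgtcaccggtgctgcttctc
Polk (chr13:96542530-96542829, minus strand): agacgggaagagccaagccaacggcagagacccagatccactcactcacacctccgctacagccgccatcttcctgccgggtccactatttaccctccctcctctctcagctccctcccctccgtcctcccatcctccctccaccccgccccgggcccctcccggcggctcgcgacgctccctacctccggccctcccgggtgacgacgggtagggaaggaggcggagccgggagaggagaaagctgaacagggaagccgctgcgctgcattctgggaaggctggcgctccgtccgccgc

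The next stretches, of 60 bases each, come from 4 of the genes whose windows hold an E2F-like motif, and were chosen for holding it, to show where it lies in a kinase gene, in recombination genes and in a mismatch gene. Capitals mark matches on either strand to the E2F-like motifs TTTCCCGC or TTCCCGCC, which overlap in Rad51c and Msh6.
Chek2 (chr5:110839805-110839864, plus strand): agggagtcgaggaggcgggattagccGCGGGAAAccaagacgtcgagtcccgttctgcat
Bard1 (chr1:71103148-71103207, minus strand): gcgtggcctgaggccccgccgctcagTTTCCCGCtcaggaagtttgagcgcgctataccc
Rad51c (chr11:87404927-87404986, minus strand): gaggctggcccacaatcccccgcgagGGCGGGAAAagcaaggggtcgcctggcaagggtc
Msh6 (chr17:87975039-87975098, plus strand): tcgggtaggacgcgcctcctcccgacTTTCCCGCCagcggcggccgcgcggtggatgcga

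Promoter windows were found for 32 of the 39 genes; Rad50, Nbn, Exo1, Fancd2, Xpc, Ddb2 and Prkdc had no entry. At least 1 of the 3 E2F-like motifs searched (the third was TTTGGCGC) lay in the windows of 7 of these 32 genes (21.9%), which were Chek1, Chek2, Brca2, Bard1, Rad51c, Msh6 and Xrcc6, against 3.69% of 27025 genes. Of the 8 recombination genes with a window 3 held one. None of the 3 Fanconi anaemia genes with a window, none of the 4 nucleotide excision genes with a window and none of the 7 base excision genes held one. CCAAT lay in 41.1% of all genes and in 19 of the 32, and TTTGAA in 20.2% of all genes and in 2 of the 32, Bard1 and Ercc5. A p53 response element, defined as 2 half-sites up to 13 bases apart, lay in 0.074% of all genes and in none of the 32. A single p53 half-site lay in 9.55% of all genes, in Fanca and at the other start of Polk. The 27025 genes are all those with a window, more than the 13476 genes tested here, whereas all 32 were tested. The shares are thus of unlike sets. These matches describe letters in short windows and show no binding.

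Libraries held 5669521 to 16323270 counts. Trp53 itself lay between 4.43 and 32.8 CPM (read counts scaled to a common library size with TMM factors) in the 10 KO libraries, against 98.1 to 165 CPM in the 10 WT libraries, so each library matched its genotype label. The epithelial genes Epcam, Cdh1 and Krt8 were at 556 CPM or more in every line. They belong to a list of 12 gastric epithelium markers, which summed to 11382 to 16507 CPM in KO lines and 12475 to 15230 CPM in WT lines. Of these 12 genes, 1 was nearly absent in every line. Summed over 11 immune marker genes, KO lines held 9.55 to 33.1 CPM and WT lines 19.5 to 52.6 CPM, with the lymphocyte genes Cd3g and Ms4a1 at 0. Cd68 made most of the immune sum in every line. Over 10 fibroblast markers the sums were 39.0 to 164 CPM in KO lines against 44.6 to 95.4 CPM in WT lines, and over 6 endothelial markers 1.70 to 4.84 CPM in KO lines against 1.45 to 8.34 CPM in WT lines. A set of 6 libraries (794-3, 801-3, 565-3, 752-3, 650-2 and 300-2, by line and library number) is referred to as those that stood apart. They were chosen with earlier results known, and no cut-off is given. By chi-square per degree of freedom between libraries of a line, 565-3 was not extreme, at 23.5 and 26.7. Libraries 1269-1 and 1269-2 gave 35.8, and 1270-1 and 1270-2 gave 65.4. Lines 650 and 300 have only 2 libraries, so this measure cannot say which of them differs. Results are given with and without the 6 libraries where they matter.

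Ercc5 and Polk, 2 of the 39 genes (5.13%), were lower in all 4 KO lines than in all 4 WT lines, as were 1.46% of all genes tested, and the rest of the 39 overlapped between the genotypes. Ercc5 encodes the endonuclease XPG, which makes the cut on the 3′ side of the lesion in nucleotide excision repair. Polk encodes DNA polymerase kappa, which copies past bulky lesions. Neither passed edgeR's adjusted test on line sums, and no gene in the table did in that test. Trp53 itself missed the threshold there, with a log2 fold change of -3.17 and 0.739 as its Benjamini-Hochberg value from edgeR. Among 20 p53 target genes 19 were below 0 in KO over WT, at a median of -1.08. A miss in this test therefore does not show that a gene is unchanged. DESeq2 on the same line sums called other genes but neither Ercc5 nor Polk. In bulk RNA, fewer cells of a type and less RNA per cell cannot be told apart.

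Ercc5 stood at 16.6, 20.35, 23.3 and 22.3 CPM in KO lines 794, 801, 1270 and 650, against 34.2, 31.3, 29.7 and 56.1 CPM in WT lines 565, 752, 300 and 1269. The highest KO line lay below the lowest WT line. The mean of Ercc5 was 20.6 ± 2.97 CPM over the 4 KO lines and 37.8 ± 12.3 CPM over the 4 WT lines (SD). The log2 fold change of KO over WT was -0.87 ± 0.21 (SE, 95% confidence interval -1.37 to -0.37), with an unadjusted p of 0.00483 and a Benjamini-Hochberg adjusted p of 0.955 in edgeR's quasi-likelihood test. In dysplastic lines alone it was -0.83 ± 0.30 and in non-dysplastic lines alone -0.91 ± 0.30 (SE), with adjusted p of 1 in both by the same test. Of 22 settings tried, limma-voom with lines as correlated blocks was the only one whose adjusted p for Ercc5 fell under 0.05, at 0.0345, and over the 21 alternatives it ran up to 1. That setting tested single libraries, with a correlation of 0.22 within lines. With a replicate block in limma-voom this correlation was 0.38 and the adjusted p 0.0751. With a term for the 6 libraries that stood apart they were 0.45 and 0.0575 in limma-voom. DESeq2 on line sums gave an adjusted p of 0.0645.

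Within line 1269, the highest for Ercc5, the second library stood at 72.8 CPM and the first at 41.0 CPM. Over single libraries Ercc5 ran from 11.3 to 25.4 CPM in the 10 KO and from 26.0 to 72.8 CPM in the 10 WT libraries, so even libraries did not overlap. Without line 1269 the log2 fold change of Ercc5 was -0.59 for the mean and -0.34 in the non-dysplastic lines. Within the 6 libraries that stood apart, the log2 ratio of the mean KO to the mean WT level was -0.83, and in the other 14 it was -0.90.

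Polk was at 30.7, 21.7, 17.9 and 30.5 CPM in KO lines 794, 801, 1270 and 650, against 34.2, 34.5, 33.1 and 52.2 CPM in WT lines 565, 752, 300 and 1269. The lines did not overlap, but the gap between KO line 794 and WT line 300 was narrow, and libraries overlapped: the highest KO library stood at 34.4 CPM and the lowest WT library at 31.1 CPM. The mean of Polk was 25.2 ± 6.43 CPM over the 4 KO lines and 38.5 ± 9.17 CPM over the 4 WT lines (SD). The log2 fold change was -0.60 ± 0.24 (SE, 95% confidence interval -1.17 to -0.04), with an unadjusted p of 0.0387 and a Benjamini-Hochberg adjusted p of 1 in edgeR's test. It was -0.39 ± 0.33 in dysplastic and -0.82 ± 0.34 in non-dysplastic lines (SE). The non-dysplastic value was -0.42 without line 1269, -0.47 without line 1270 and -0.39 when the second replicate of every line was left out, and it was -1.25 without line 650. Here too line 1269 was the highest, at 69.2 CPM in its second and 37.0 CPM in its first library, and without it the log2 fold change was -0.41. Within the 6 libraries that stood apart the log2 ratio of means was -0.55, and in the others -0.63.

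**Figure D1:**
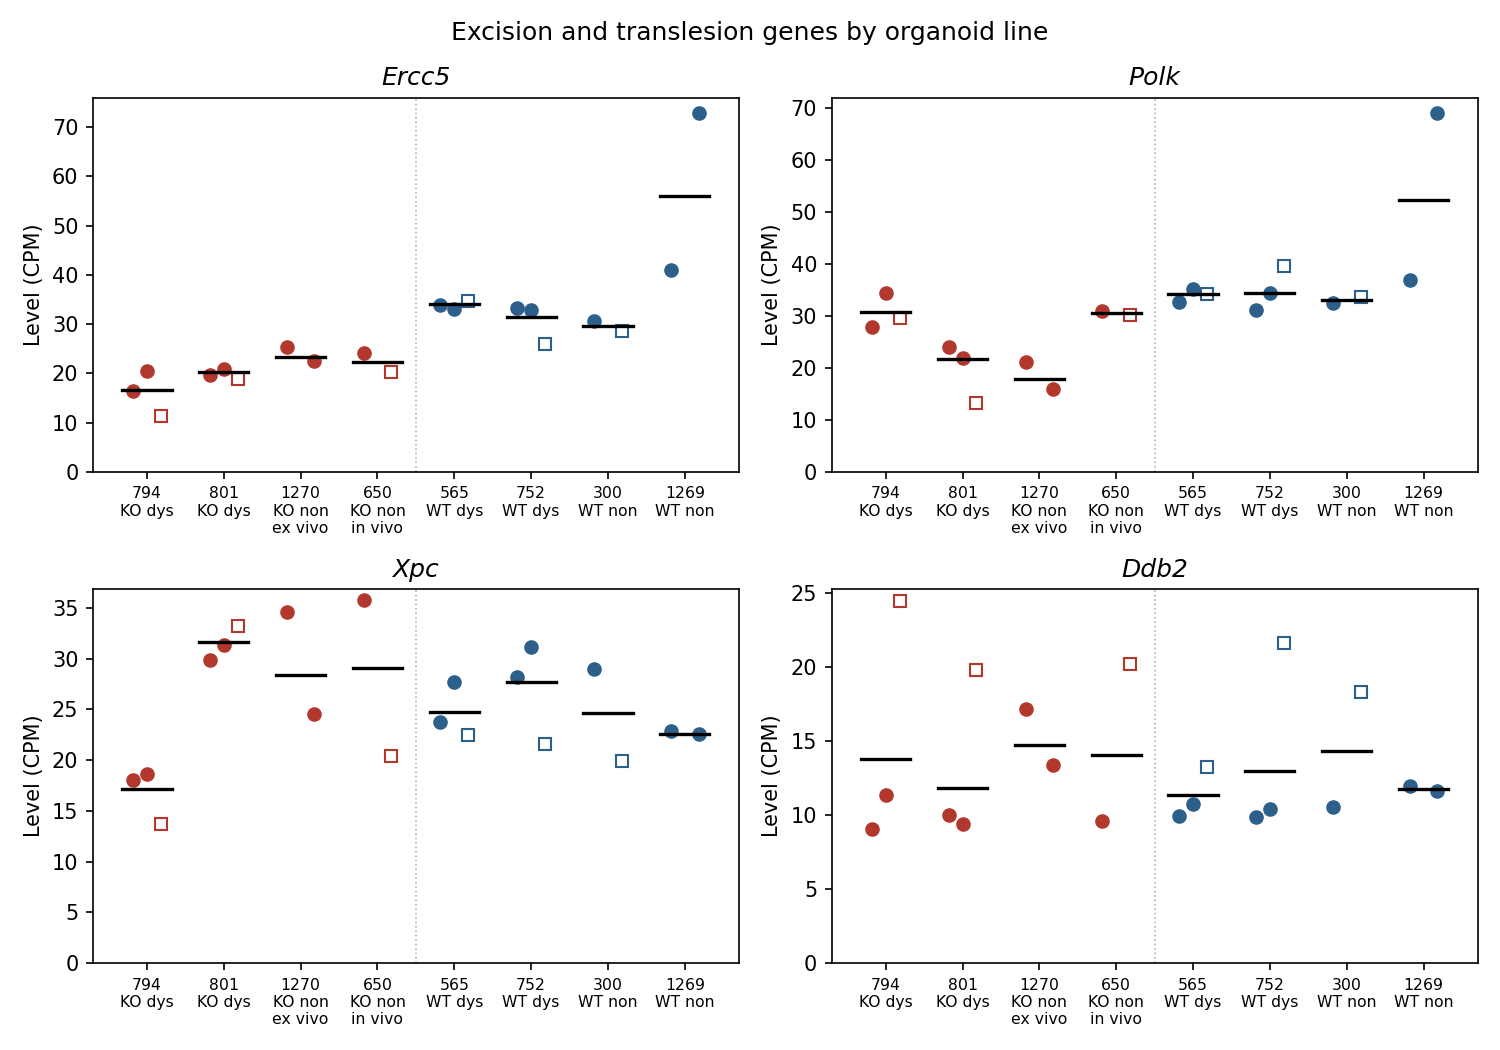
Levels of Ercc5, Polk, Xpc and Ddb2 in CPM in each library, by organoid line (dys, dysplastic; non, non-dysplastic), with KO in red and WT in blue; open squares are the 6 libraries that stood apart and black bars the value of the summed line. Ercc5 stays at or below 25.4 CPM in KO libraries and at or above 26.0 CPM in WT libraries, whereas Xpc and Ddb2 overlap, and Ddb2 is high in the open squares of each line.

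The other damage recognition and incision genes did not follow Ercc5. Xpc and Ddb2, which find lesions and are known p53 targets in human cells, had log2 fold changes of 0.09 (95% confidence interval -0.38 to 0.57) and 0.11 (-0.24 to 0.46). Xpc stood at 17.2, 31.6, 28.4 and 29.1 CPM in KO lines 794, 801, 1270 and 650, against 24.7, 27.7, 24.7 and 22.6 CPM in WT lines 565, 752, 300 and 1269. Ddb2 stood at 13.8, 11.9, 14.8 and 14.1 CPM in the same KO lines and at 11.4, 13.02, 14.4 and 11.8 CPM in the WT lines. Both genes overlapped between genotypes, and Xpc was lowest in KO line 794. Ercc2, a helicase of the repair factor TFIIH and the nucleotide excision gene with the highest mean CPM, averaged 35.9 ± 5.10 CPM over the 4 KO lines and 35.6 ± 1.42 CPM over the 4 WT lines (SD). Xpa, a scaffold of the incision complex, and Ercc1, a subunit of the nuclease that cuts on the 5′ side, had log2 fold changes of 0.04 and 0.02.

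Few of the 39 genes passed any threshold. In edgeR's test of KO against WT, 0 of 39 genes passed an adjusted p of 0.05, as did 0% of 13476 genes tested. At an unadjusted p under 0.05 there were 2 of 39 (5.13%), Ercc5 and Polk, against 4.03% of all genes. DESeq2 called 0 of the 39 and 0.542% of all genes, while limma-voom on libraries, blocked by line, called 1 of the 39 (2.56%) and 0.497% of all genes. All 4 KO lines lay below all 4 WT lines for 2 of 39 genes (5.13%), against 1.46% of all genes, and above them for 0 of 39, against 0.92% of all genes. The median log2 fold change was -0.07 over the 39 genes and -0.01 over all genes tested, and 14 of 39 (35.9%) were above 0, against 48.5% of all genes and 10 of 36 proliferation genes.

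Among the routes, the median log2 fold change of KO over WT was -0.09 for 11 homologous recombination genes, -0.08 for 4 Fanconi anaemia genes, -0.04 for 2 mismatch repair genes, 0.03 for 6 nucleotide excision genes, 0.01 for 7 base excision genes, -0.13 for 4 end-joining genes and -0.15 for 4 damage kinases. All 4 kinases were below 0, from -0.27 for Atr to -0.05 for Chek1. Atm, the kinase with the highest mean CPM, stood at 40.3, 45.2, 67.4 and 46.8 CPM in KO lines 794, 801, 1270 and 650, against 48.8, 44.3, 50.1 and 64.7 CPM in WT lines 565, 752, 300 and 1269. Outside nucleotide excision, where Ercc5 did not overlap, the genotypes overlapped in every gene of these groups. The widest intervals belonged to the recombination genes: for Brca1 the 95% confidence interval of the log2 fold change of -0.25 ran from -1.15 to 0.65, against -0.30 to 0.33 for Ercc2.

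**Figure D2:**
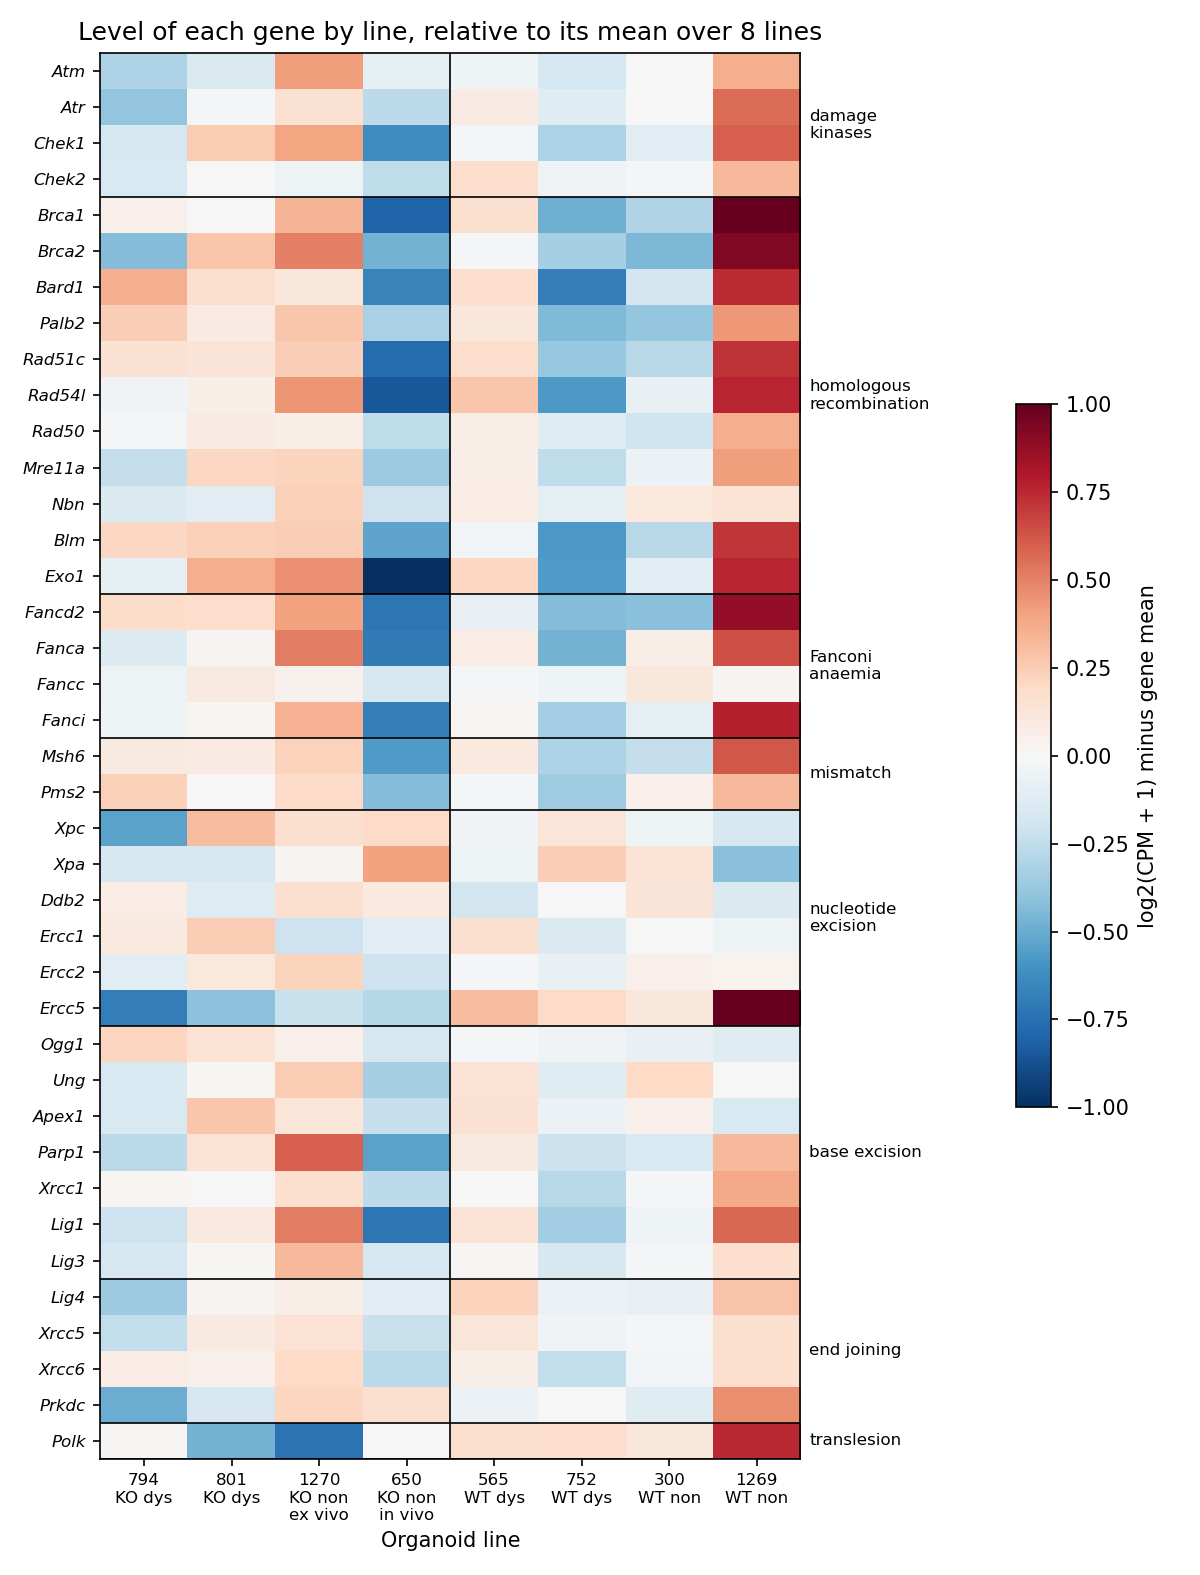
Level of each of the 39 genes in each of the 8 lines (columns, KO left of the black line and WT right of it; dys, dysplastic; non, non-dysplastic), as log2(CPM + 1) minus the mean of the gene over lines, with rows ordered by repair route. Recombination and Fanconi rows are mostly blue in KO line 650 and red in WT line 1269, Ercc5 is blue in all KO lines and red in all WT lines, and most other nucleotide excision rows are pale.

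The recombination and Fanconi anaemia genes varied widely over lines, and the genotypes overlapped. Of these 15 genes, 13 were highest in WT line 1269, and 12 were lowest in KO line 650 and the other 3 in WT line 752. Brca1, whose product loads the recombinase onto resected breaks with its partners Bard1, Palb2 and Brca2, stood at 36.7, 35.4, 45.0 and 19.9 CPM in KO lines 794, 801, 1270 and 650, against 39.7, 24.98, 28.5 and 73.7 CPM in WT lines 565, 752, 300 and 1269. Its highest line held 3.71 times the level of its lowest. Fancd2, which with Fanci is ubiquitylated at crosslinks, stood at 18.8, 18.7, 22.1 and 9.54 CPM in the KO lines and at 15.6, 11.9, 12.0 and 31.1 CPM in the WT lines, in the same order. Line 650 was the lowest and line 1269 the highest for both, and the genotypes overlapped throughout.

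Several other genes of the route had the same lowest and highest lines. Rad54l, a motor protein of strand exchange, was lowest at 10.8 CPM in KO line 650 and highest at 35.0 CPM in WT line 1269. Exo1, the exonuclease that resects break ends, ran from 10.8 to 39.4 CPM, and Rad51c, a paralogue of the recombinase, from 2.43 to 8.66 CPM, between the same lines. Blm, a helicase that dissolves recombination intermediates, was lowest in WT line 752 at 14.5 CPM, and close to it in KO line 650 at 15.0 CPM. The parts of the break sensor were flatter. Rad50, with the highest mean CPM among recombination genes, stood at 55.1, 58.8, 58.1 and 46.4 CPM in KO lines 794, 801, 1270 and 650, against 58.3, 51.0, 48.3 and 71.8 CPM in WT lines 565, 752, 300 and 1269. Nbn varied 1.38-fold over lines and Mre11a 1.75-fold. Fanca, of the core complex and the Fanconi gene with the highest mean CPM, varied 2.64-fold, from 17.6 CPM in line 650 to 46.4 CPM in line 1269, whereas Fancc, of the same complex, varied 1.22-fold.

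The routes differed in how far lines lay apart. For the median gene of the group the highest line held 2.78 times the level of the lowest in homologous recombination, 2.76 in Fanconi anaemia, 2.02 in mismatch repair, 1.82 among damage kinases, 1.62 in nucleotide excision, 1.53 in base excision and 1.498 in end joining, against 1.71 for the median of all genes tested. As group levels (the mean of log2(CPM + 1) over a group), homologous recombination ran from 3.82 in KO line 650 to 5.03 in WT line 1269, a range of 1.21, and nucleotide excision from 4.15 to 4.44, a range of 0.29. The ranges were 1.15 for Fanconi anaemia, 0.97 for mismatch repair, 0.64 for base excision and 0.52 for end joining. The small range of nucleotide excision is that of a mean over genes that did not move together. Line 1269 was the highest for Ercc5 and the lowest for Xpa. Ercc5, Xpa and Xpc varied 3.38-, 1.89- and 1.84-fold over lines.

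A list of 36 proliferation genes moved with the recombination genes. Its group level was 6.38, 6.50, 6.70 and 5.697 in KO lines 794, 801, 1270 and 650, against 6.45, 5.97, 6.24 and 7.001 in WT lines 565, 752, 300 and 1269. The homologous recombination level was 4.40, 4.53, 4.68 and 3.82 in these KO lines, against 4.51, 3.98, 4.19 and 5.03 in the WT lines. Both lists put the 8 lines in the same order. Taken as a difference between them, homologous recombination minus proliferation lay between -2.05 and -1.87 in all 8 lines, and Fanconi anaemia minus proliferation between -2.08 and -1.89. The part of proliferation in the recombination levels was not tested.

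**Figure D3:**
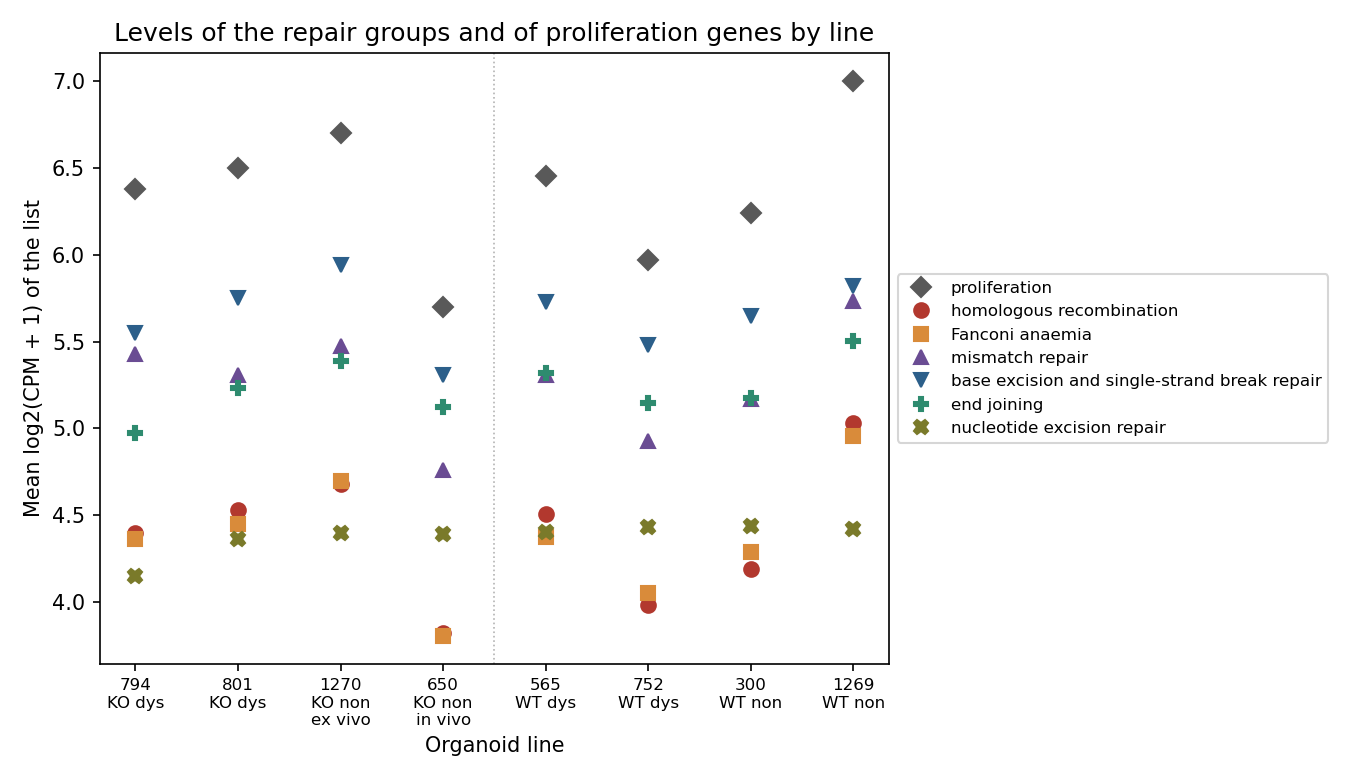
Group level, the mean of log2(CPM + 1), of 6 repair routes and of 36 proliferation genes in each of the 8 lines (KO left of the dotted line, WT right; dys, dysplastic; non, non-dysplastic). Recombination and Fanconi points follow the proliferation points up and down, from KO line 650 to WT line 1269, while nucleotide excision stays between 4.15 and 4.44.

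The mismatch repair genes had the same lowest and highest lines as most recombination genes, at a smaller range, with a somewhat different order of the lines between. Msh6, which with its partner recognises base mismatches, stood at 83.8, 83.5, 92.5 and 52.8 CPM in KO lines 794, 801, 1270 and 650, against 84.6, 63.4, 66.7 and 121 CPM in WT lines 565, 752, 300 and 1269. Pms2, a subunit of the endonuclease that follows, ran from 12.7 CPM in line 650 to 22.1 CPM in line 1269. The kinase Chek1, which restrains the cell cycle when replication stalls, also had its lowest level in line 650 and its highest in line 1269, at 15.5, 21.3, 23.5 and 11.1 CPM in the KO lines and 17.4, 14.0, 16.2 and 27.2 CPM in the WT lines. Chek2 varied 1.51-fold.

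Base excision and single-strand break repair divided in how they varied. Lig1, the ligase that joins replicated fragments as well as repair patches, stood at 87.8, 108, 145 and 61.1 CPM in KO lines 794, 801, 1270 and 650, against 111, 79.6, 98.4 and 151 CPM in WT lines 565, 752, 300 and 1269. Parp1, the sensor of strand breaks, ran from 66.6 CPM in line 650 to 147 CPM in line 1270, and both were thus lowest in line 650. The glycosylase Ogg1, which removes oxidised guanine, varied 1.33-fold, and Apex1, which cuts the site left behind, 1.43-fold. Per kilobase of transcript Apex1 had the highest mean level of the 39 genes, 69.3 CPM per kb, and Rad51c the lowest, 1.29 CPM per kb.

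End joining was among the flatter groups. Xrcc5, which encodes the Ku80 subunit that holds broken ends, stood at 51.1, 64.7, 67.4 and 51.8 CPM in KO lines 794, 801, 1270 and 650, against 66.2, 59.2, 60.4 and 68.0 CPM in WT lines 565, 752, 300 and 1269. Its partner Xrcc6 varied 1.39-fold, the ligase gene Lig4 1.604-fold and Prkdc, the DNA-dependent kinase, 2.00-fold. None of these 4 genes separated KO from WT, and their log2 fold changes lay between -0.20 and 0.03.

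Split by dysplasia, the log2 fold changes of the recombination genes mostly had opposite signs, but no gene passed the test. In dysplastic lines 10 of 11 homologous recombination genes had a log2 fold change of KO over WT above 0, with a median of 0.16, and in non-dysplastic lines 0 of 11, with a median of -0.41. Over all genes tested, 52.5% were above 0 in dysplastic lines (median 0.01) and 45.5% in non-dysplastic lines (median -0.02). Among 36 proliferation genes these counts were 32 (median 0.20) and 0 (median -0.37). Fancd2 shows the pattern: KO averaged 18.8 ± 0.0904 CPM and WT 13.8 ± 2.59 CPM in dysplastic lines, whereas KO averaged 15.8 ± 8.87 CPM and WT 21.6 ± 13.5 CPM in non-dysplastic lines (SD, n = 2 lines each). The interaction between genotype and dysplasia was above 0 for 10 of 11 recombination genes, with a median of 0.59 on the log2 scale, for 36 of 36 proliferation genes, with a median of 0.61, and for 55.4% of all genes tested, with a median of 0.04.

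These directions rested on single lines. Of the 15 recombination and Fanconi genes, 0 were above 0 in non-dysplastic KO over WT, but 13 were without line 1269, 8 without line 650 and 9 without the first replicate of every line. In dysplastic lines 14 of 15 were above 0, and 5 without line 752. The median over the 15 genes was -0.41 in non-dysplastic lines. It was -1.10 without line 1270 and -0.85 without line 300, and -0.995 when the second replicate was left out. In dysplastic lines the median was 0.14, and leaving out a line gave 0.51 for line 565, 0.24 for line 794 and 0.05 for line 801. For KO against WT as a mean over both classes, 3 of 15 were above 0, but 13 without line 1269 and 13 without line 650. This count was 10 when line 565 was left out and 13 when the first replicate of every line was. The median interaction over the 15 genes was 0.59. It was 0.03 without line 1269 and 0.12 without line 650, and it was 0.30 when line 752 was left out and 0.11 when the first replicate of every line was. It was 1.25 without line 1270 and 1.00 without line 300, and 1.204 when the second replicate was left out. In edgeR's test 0 of the 39 genes and 0% of all genes passed in either class or in the interaction. DESeq2 called 0 of the 39 and 0.512% of all genes in dysplastic lines, and 0 of the 39 and 0.0445% in non-dysplastic lines; limma-voom called 0 of the 39 and 0.797% of all genes in dysplastic lines, and 0 of the 39 and 0.0395% in non-dysplastic lines. For the interaction both called 0 of the 39 and 0% of all genes. At an unadjusted p under 0.05 edgeR gave 2 of 39 in non-dysplastic lines (Ercc5 and Polk; 1.91% of all genes), 1 of 39 in dysplastic lines (Ercc5; 4.36% of all genes) and 0 of 39 for the interaction (1.79% of all genes).

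**Figure D4:**
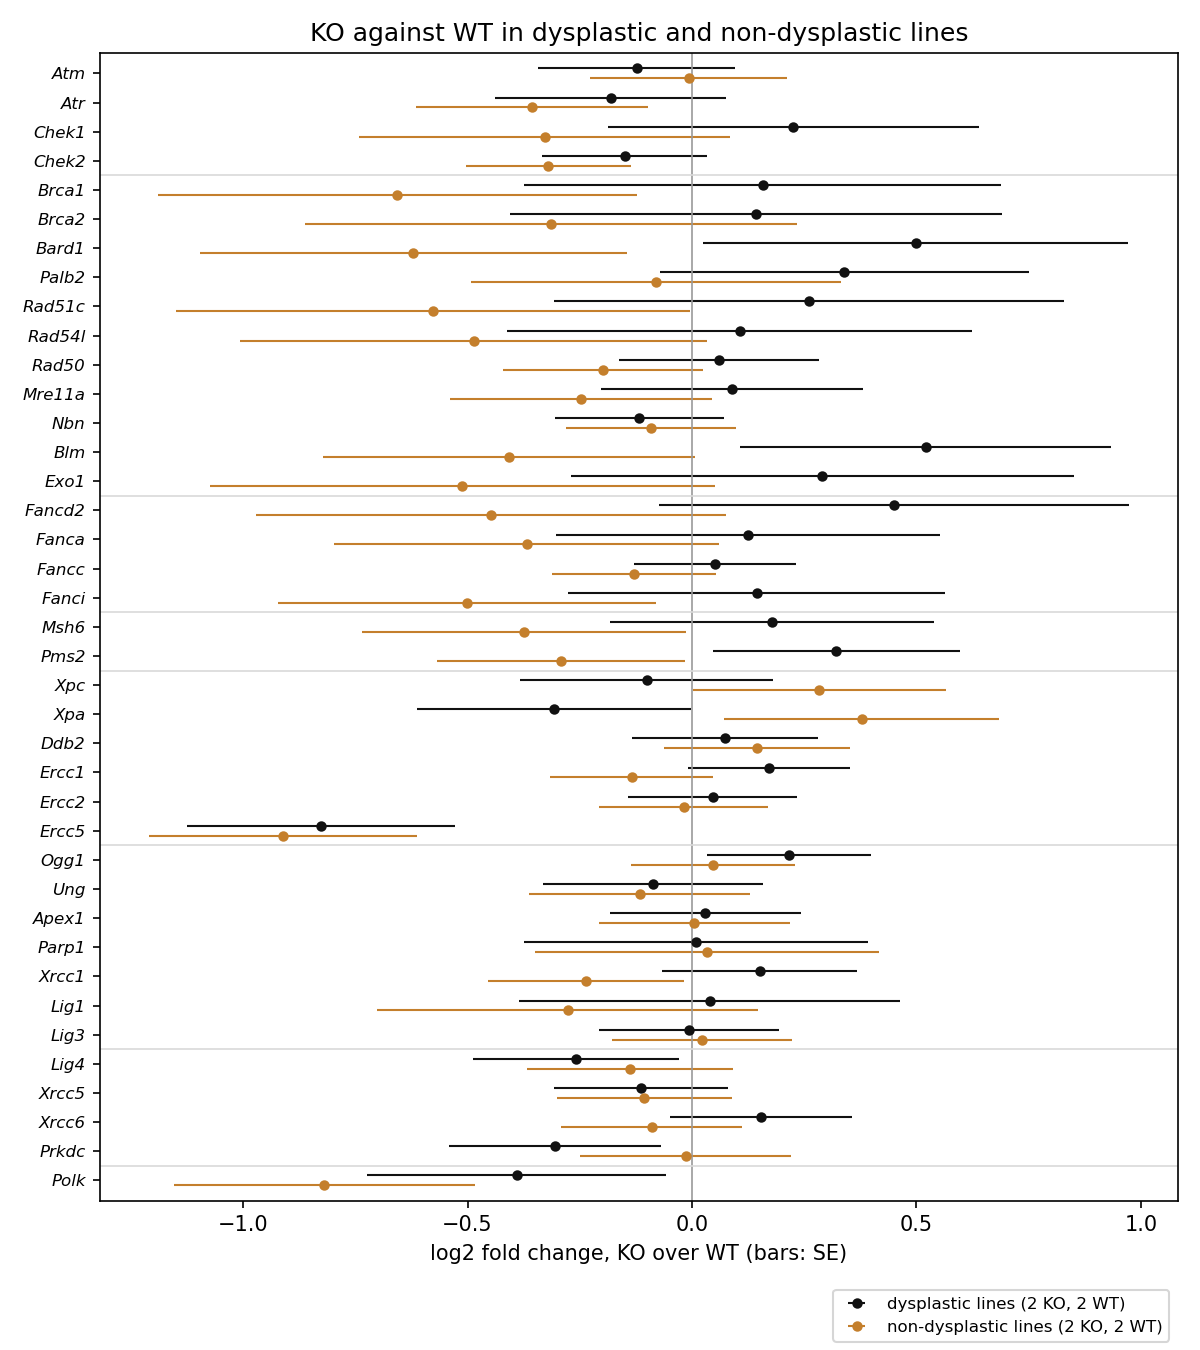
The log2 fold change of KO over WT for each of the 39 genes in dysplastic (black) and non-dysplastic (orange) lines, 2 KO and 2 WT lines each, with bars of 1 SE. Ercc5 lies near -0.83 and -0.91 in both classes, while most recombination and Fanconi genes lie above 0 in dysplastic and below 0 in non-dysplastic lines with bars that are wide.

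Between dysplastic and non-dysplastic lines none of the 39 genes passed the test. In edgeR's test 0 of 39 genes passed, with 0% of all genes, and at an unadjusted p under 0.05 there were 0 of 39, against 5.91% of all genes. DESeq2 called 0 of the 39 and 1.14% of all genes, and limma-voom 0 of the 39 and 1.09% of all genes. All 4 dysplastic lines lay below all 4 non-dysplastic lines for 0 of 39 genes and above them for 0 of 39, against 1.31% and 1.75% of all genes. The log2 fold change of dysplastic over non-dysplastic was above 0 for 3 of 39 genes with a median of -0.13, for 2 of 36 proliferation genes with a median of -0.13, and for 46.2% of all genes tested with a median of -0.02. For the 15 recombination and Fanconi genes all values were below 0, but 12 were above 0 without line 1269 and 13 without line 1270. Without the 6 libraries that stood apart 5 of 15 were above 0, with a median of -0.08 against -0.14, and when the second replicate was left out 7 were, with a median of -0.01. With a replicate block in limma-voom 4 were above 0, with a median of -0.04. Both male lines are non-dysplastic. With the sex of the line as a covariate, 0 of 39 genes passed edgeR's adjusted test, 17 of 39 (43.6%) had an unadjusted p under 0.05, against 12.7% of all genes in that fit, and the median over the 15 genes was -0.53, against -0.14 without it. All dysplastic lines are female, so that fit sets them against lines 1269 and 1270 alone. Among non-dysplastic lines the male ones are also those that hold a library that stood apart, so sex and such libraries cannot be told apart there.

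Atm and Prkdc, singled out after their values were seen, came closest. Atm averaged 44.6 ± 3.51 CPM over the 4 dysplastic lines and 57.2 ± 10.3 CPM over the 4 non-dysplastic lines (SD). Prkdc averaged 23.1 ± 3.49 CPM over the dysplastic lines and 29.98 ± 5.15 CPM over the non-dysplastic lines (SD, n = 4 lines for both). Their log2 fold changes were -0.36 and -0.38, with adjusted p of 0.863 and 0.868 in edgeR's test. Without the second replicate of every line these became -1.14 and -1.06, with adjusted p of 0.0314 and 0.0379 in the same test. In that setting 2 of 39 genes (5.13%) and 1.04% of all genes passed, and 15.4% of the 39 and 24.2% of all genes had an unadjusted p under 0.05. That setting leaves a library that stood apart in every dysplastic line and in no non-dysplastic line. Both genes are among the longest of the 39 and were low in such libraries, as given next. First libraries, none of which stood apart, also differed. Atm was at 31.9 to 42.9 CPM in those of dysplastic lines and 63.1 to 82.2 CPM in those of non-dysplastic lines. Prkdc was at 16.4 to 21.2 CPM and 31.4 to 42.6 CPM in the same libraries. The second libraries, left out there, held Atm at 59.5 to 67.9 CPM in dysplastic and 25.5 to 60.1 CPM in non-dysplastic lines. The part of the libraries that stood apart in these calls was not tested.

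In the 6 libraries that stood apart, long repair transcripts were low and short ones high. Measured against the other libraries of its own line, the median log2 shift over the 6 libraries was -1.04 for Atm, -0.86 for Prkdc, -0.68 for Brca2 and -0.50 for Atr, and it was 0.98 for Ddb2, 0.47 for Ercc1 and 0.40 for Ogg1. All 5 genes with transcripts over 7000 bases had a negative median shift (median -0.68) and all 7 under 2500 bases a positive one (median 0.29), against medians of -0.52 over 1087 and 0.30 over 4797 genes of these lengths in the table. Across the 39 genes, the median shift and length had a Spearman rho of -0.78, a description over genes that share the same libraries. Over 12863 genes with a length rho lay between -0.64 and -0.49 in the 6 libraries, against -0.08 to 0.39 in other pairs of libraries of a line. Pms2 did not follow its length, with a shift of 0.64 at 5482 bases, and Exo1 had a median shift of -0.11 at 7796 bases.

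Lines differed in how many such libraries they held. Lines 1269 and 1270 hold no such library, lines 650 and 300 hold 1 of 2, and the dysplastic lines 1 of 3. Within a line, Ddb2 stood at 24.5 CPM in the third library of KO line 794 and at 9.06 and 11.3 CPM in its other libraries, and at 21.6 CPM in the third library of WT line 752 and at 9.85 and 10.4 CPM in its others. Ercc5 and Polk, of middle length, shifted by -0.17 and -0.01. The part of RNA quality or library preparation in these shifts was not tested.

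**Figure D5:**
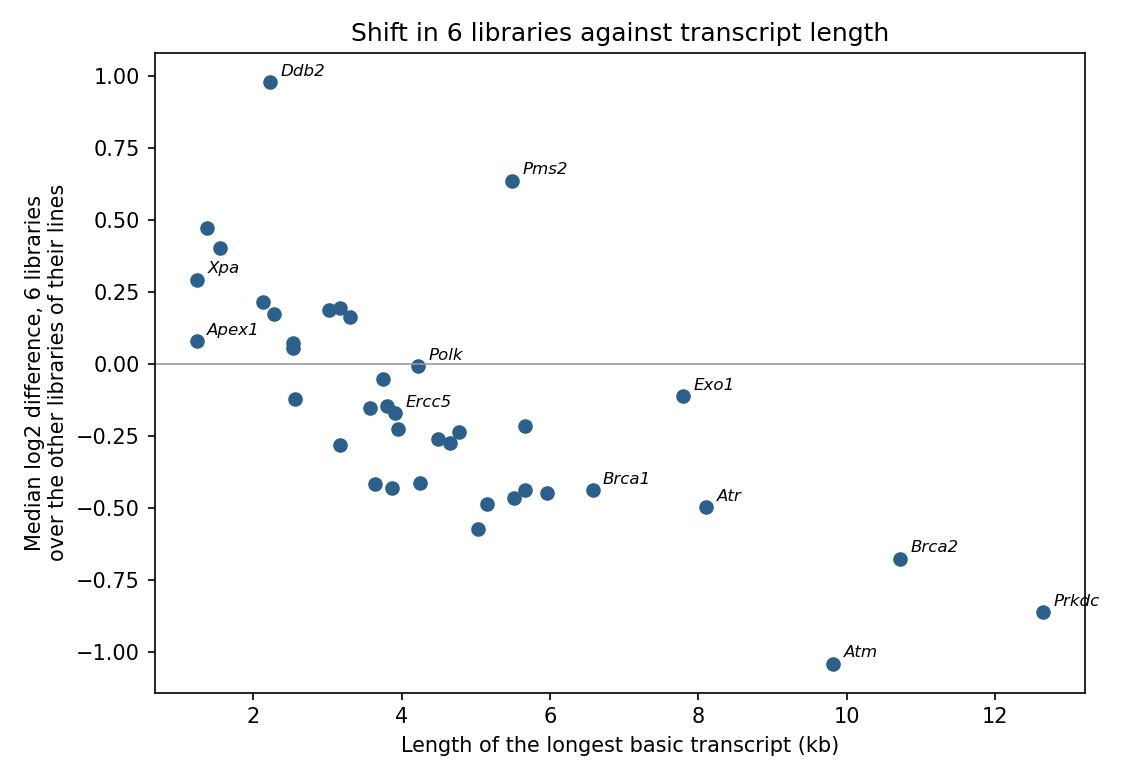
Median log2 difference between each of the 6 libraries that stood apart and the other libraries of its line, for each of the 39 genes (points), against the length of the longest basic transcript in kilobases. Points fall from short to long transcripts, with Atm, Prkdc and Brca2 lowest, Ddb2 highest, and Pms2 above the trend.

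Among non-dysplastic KO lines, the ex vivo line 1270 held more of nearly all repair transcripts than the in vivo line 650. The log2 fold change of ex vivo over in vivo was above 0 for 35 of 39 genes with a median of 0.51, against 47.8% and a median of -0.02 over all genes tested. The medians were 1.15 for Fanconi anaemia, 0.87 for homologous recombination, 0.74 for mismatch repair, 0.51 for base excision, 0.28 for end joining and 0.02 for nucleotide excision. All 36 proliferation genes were above 0, with a median of 1.09. With 1 line per mode, the mode of KO cannot be told apart from the line, and line 1270 is female and line 650 male. Residual Trp53 differed too, at 5.87 and 4.46 CPM in the libraries of line 1270 and 22.7 and 32.8 CPM in those of line 650. Of 20 p53 target genes, 19 had a log2 fold change below 0, with a median of -0.92. The part of residual Trp53 in the repair levels was not tested. Markers of other cells also differed between these lines: 9 of 10 fibroblast markers were lower in line 1270, with sums of 69.6 CPM in line 1270 and 117.5 CPM in line 650, and Acta2 at 4.95 and 55.4 CPM in the same lines. The marker that ran the other way was Fbln1, at 58.4 CPM in line 1270 and 26.3 CPM in line 650, and it made most of the fibroblast sum in line 1270. The 11 immune markers summed to 9.55 CPM in line 1270, against 29.3 CPM in line 650. Cd68 alone made most of both sums, at 8.81 CPM in line 1270 and 27.9 CPM in line 650. The part of these markers' cells in the repair levels was not tested. In edgeR's test, with the spread taken from the other lines, 0 of 39 genes passed, with 0% of 14057 genes, and at an unadjusted p under 0.05 there were 4 of 39 (10.3%), against 6.88% of all genes. DESeq2 called 0 of the 39 and 1.36% of all genes, and limma-voom 0 of the 39 and 0.221% of all genes.

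These 4 were Parp1, Lig1, Fanca and Exo1. Parp1 stood at 147 CPM in line 1270 and at 66.6 CPM in line 650, Lig1 at 145 and 61.1 CPM, Fanca at 42.2 and 17.6 CPM and Exo1 at 31.6 and 10.8 CPM in the same lines. Their log2 fold changes were 1.15 ± 0.35, 1.25 ± 0.40, 1.27 ± 0.41 and 1.56 ± 0.59 (SE), with adjusted p of 0.704 to 0.705 in edgeR's test. The libraries of line 1270 differed among themselves: Lig1 was at 105 CPM in the first and 183 CPM in the second, and Brca1 at 31.8 and 57.1 CPM, against 55.0 and 69.7 CPM for Lig1 and 17.97 and 22.6 CPM for Brca1 in line 650. With the sex of the line as a covariate, 8 of the 15 recombination and Fanconi genes were above 0, against 15 of 15 without it, and the median over them was 0.11, against 1.04. In that fit the log2 fold changes of Parp1, Lig1, Fanca and Exo1 were 0.67, 0.64, 0.68 and 0.66. The covariate there rests on WT lines 1269 and 300 alone, which differ also in holding a library that stood apart, so its value is the difference between lines 1270 and 650 less that between lines 1269 and 300. When the second replicate of every line was left out, the median over the 15 genes was 0.57 and the log2 fold change of Parp1 was 0.68. Polk ran the other way, at 17.9 CPM in line 1270 and 30.5 CPM in line 650, with a log2 fold change of -0.76 (95% confidence interval -1.73 to 0.21).

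A wider list of 88 repair and checkpoint genes, of which 87 were tested, was tested in the same fits. None of the 87 passed in any comparison in edgeR's test. In KO against WT, 1 of 87 (1.15%) had an unadjusted p under 0.05, against 4.03% of all genes, and that gene was Rev1, a scaffold that brings translesion polymerases such as polymerase kappa to stalled forks. Rev1 stood at 19.0, 21.0, 20.8 and 21.4 CPM in KO lines 794, 801, 1270 and 650, against 30.03, 27.7, 26.2 and 34.0 CPM in WT lines 565, 752, 300 and 1269. Its lines did not overlap, and the log2 fold change was -0.52 ± 0.13 (SE), at an edgeR adjusted p of 0.956. Rev3l, the catalytic subunit of polymerase zeta, did not separate the genotypes, at 89.5 ± 41.7 CPM over the 4 KO lines and 75.5 ± 10.9 CPM over the 4 WT lines (SD); it stood at 151 CPM in line 1270 and 61.0 CPM in line 650. In ex vivo over in vivo, 10 of 87 genes (11.5%) had an unadjusted p under 0.05, against 6.88% of all genes, and all 10 were higher in line 1270, among them Rev3l, the histone gene H2afx at 83.2 CPM in line 1270 and 51.7 CPM in line 650, and the fork protection gene Timeless at 42.9 and 14.0 CPM in the same lines.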

How the data were processed

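The 20 libraries were mRNA preparations of 100 ng input RNA, per the labels' protocols. The tools bcl2fastq and STAR 2.5 and the mouse build mm9 are named in the submitters' processing notes. Which annotation, counter and strand setting were used is not given in the sources consulted here, so overlapping and antisense genes cannot be told apart. The deposited table holds whole-number counts for each gene symbol, which the authors had not normalized.

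Counts were summed over the libraries of a line (8 lines), filtered with filterByExpr, scaled by TMM and tested with edgeR 4.0.16 (R 4.3.3) by the robust quasi-likelihood test with 4 means for genotype and dysplasia (4 residual degrees of freedom), or 5 group means for ex vivo against in vivo (3). P-values were adjusted by Benjamini-Hochberg over all genes tested, with a threshold of 0.05. The 21 alternatives included limma 3.58.1, DESeq2 1.42.0, other scaling and filters, a covariate for sex, and leaving out lines, replicates or the 6 libraries. Transcript lengths came from GENCODE M21, promoters from RefSeq. No libraries of a line agreed within sampling noise. Precision rests on line sums of 22217126 counts or more.

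Members, lists and the 6 libraries were chosen with earlier results of these data known. Genes were named by this rule: per comparison up to 6 members with the smallest unadjusted p under 0.05 and no overlap of lines; in each route the member with the highest mean CPM; Xpc, Ddb2, Polk, Chek1, Brca1 and Fancd2; up to 4 genes of the wider list; and Trp53. Other genes were named after their values were seen, to describe their route.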

Additional observations from a re-analysis of the deposited data

Results flagged for a closer look

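In groups of 4 lines, 1 line lay far from the other 3 for 8 of 156 combinations of a gene and a group. For 4 draws from 1 normal distribution the rule flags about 1 in 20, but these groups mix dysplasia classes or genotypes. The count is therefore not read against chance, and the share over all genes is not given. Each line is in a genotype group and in a dysplasia group, so the combinations are not independent. The flagged values are listed as a description only. WT line 1269 was far above the other WT lines for Ercc5, at 56.1 CPM against 29.7 to 34.2 CPM, and for Polk, at 52.2 CPM against 33.1 to 34.5 CPM. KO line 650 was far below the other KO lines for Rad51c, at 2.43 CPM against 5.38 to 5.92 CPM, and for Blm, at 15.0 CPM against 25.6 to 26.4 CPM. WT line 752 was far below the other dysplastic lines for Rad51c, at 3.48 CPM against 5.38 to 5.61 CPM, for Msh6, at 63.4 CPM against 83.5 to 84.6 CPM, for Xrcc1, at 31.1 CPM against 37.9 to 38.4 CPM, and for Xrcc6, at 42.2 CPM against 52.1 to 53.03 CPM.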

How the results depend on the processing

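Over 21 alternatives, the number of the 39 genes called in a comparison stayed at 0 in 121 of 123 recomputed counts. It was 1 in KO against WT under limma-voom with lines as correlated blocks (Ercc5), and 2 in dysplastic against non-dysplastic without replicate 2 (Atm and Prkdc), so that leaving out a line or a replicate gave 0 to 2 there. The log2 fold change of Ercc5 in KO against WT ran from -1.06 to -0.59 and that of Polk from -0.82 to -0.41, below 0 in each alternative run. With a replicate block in limma-voom, 0 of the 39 genes were called and Ercc5 had a log2 fold change of -0.84 with an adjusted p of 0.0751. Deviations from group means were also correlated between libraries of different groups, so lines that share a group were not compared. These deviations still hold differences between lines of a group. Same-numbered libraries gave correlations from -0.69 to 0.67 (median 0.12) and others from -0.67 to 0.73 (median -0.04). By this check the numbers did not pair the samples throughout. The third library of every line that has one stood apart, however. Atm was also higher in the second than in the first library of every dysplastic line. Counts at an unadjusted p under 0.05 were less stable. The highest were 5 of 39 in KO against WT (12.8%, against 5.01% of all genes in that fit), 13 in non-dysplastic lines (33.3%, against 6.61%), 2 in dysplastic lines (5.13%, against 5.46%) and 9 for the interaction (23.1%, against 6.27%), each without replicate 2, 17 for dysplasia with sex as a covariate (43.6%, against 12.7%), and 12 for ex vivo against in vivo without the 6 libraries (30.8%, against 9.62%); the lowest were 0 or 1. With 4 lines a genotype, a log2 fold change such as that of Brca1 is known only within -1.15 to 0.65, so intervals rather than missed thresholds limit what can be said of the recombination genes.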
